A study of Mus musculus with 7 samples.

Results

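The respiratory chain genes of bone marrow LSK cells (Lineage- Sca-1+ cKit+, the marrow fraction that holds the blood stem cells and the earliest multipotent progenitors) were described from single-cell RNA libraries of mice. Members were chosen by name: symbols that begin with Nduf (Ndufaf assembly factors left out), Cox4, Cox5, Cox6, Cox7, Cox8, Uqcr, Atp5 or mt-, together with Sdha, Sdhb, Sdhc and Sdhd. The rule found 99 of the 32285 genes in the files, of which 86 are encoded in the nucleus and 13 in mitochondrial DNA. The nuclear members comprised 39 of complex I, 4 of complex II, 8 of complex III, 18 of complex IV and 17 of complex V, and the mt- members 7, 0, 1, 3 and 2. Ndufa4 is counted here under complex I for its symbol, although its product is now known as a subunit of complex IV, and Cox7a2l encodes a factor that joins complexes into supercomplexes.

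The study compared mice without the Golgi galactosyltransferase B4galt1 (genotype label 129S1/C57Bl/6, B4-/-; 3 libraries, KO replicates 1 to 3) with mice labelled WT (genotype 129S1/C57Bl/6; 4 libraries, WT replicates 1 to 4), all untreated as far as the labels say. Every group shared the mixed strain background, the source (marrow flushed from tibia and femur) and the LSK label, and the labels name no Cre driver. Age and sex are not given in the sources used here. The labels do not say that replicates came from separate mice, so p-values between the labels measure only the spread between these libraries.

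Complexes I to IV of the inner mitochondrial membrane pass electrons from NADH and succinate to oxygen. Complexes I, III and IV pump protons, and complex V, the ATP synthase, uses the proton gradient to make ATP. Complex II is wholly nuclear, while the others combine nuclear subunits, imported from the cytosol, with a few core subunits that mitochondrial DNA encodes. Blood stem cells are known for quiescence, low respiration and reliance on glycolysis, and their commitment to a lineage is known to go with higher oxidative metabolism.

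The promoters of 5 nuclear members, 1 per complex, are shown because each of these genes rose in the lymphoid and in the myeloid gate. Each run gives 280 bases, from 250 before to 30 after the RefSeq start (build GRCm38.p6), read 5′ to 3′ on the gene's strand. Capitals mark matches to the NRF1 pattern (GCGCA, any base, GCGC) or the ETS pattern CCGGAAG on either strand; an ETS match on the other strand reads CTTCCGG. Ndufb6 lies at chr4:40279392-40279671, minus strand, Sdhd at chr9:50603820-50604099, minus strand, Uqcrc1 at chr9:108936398-108936677, plus strand, Cox5a at chr9:57520982-57521261, plus strand, and Atp5o at chr16:91931601-91931880, minus strand.
Ndufb6: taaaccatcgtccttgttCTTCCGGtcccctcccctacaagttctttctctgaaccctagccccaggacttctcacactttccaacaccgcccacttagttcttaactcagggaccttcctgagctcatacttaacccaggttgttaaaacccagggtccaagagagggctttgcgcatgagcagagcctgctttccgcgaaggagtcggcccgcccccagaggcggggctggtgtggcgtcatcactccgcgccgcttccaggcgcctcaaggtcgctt
Sdhd: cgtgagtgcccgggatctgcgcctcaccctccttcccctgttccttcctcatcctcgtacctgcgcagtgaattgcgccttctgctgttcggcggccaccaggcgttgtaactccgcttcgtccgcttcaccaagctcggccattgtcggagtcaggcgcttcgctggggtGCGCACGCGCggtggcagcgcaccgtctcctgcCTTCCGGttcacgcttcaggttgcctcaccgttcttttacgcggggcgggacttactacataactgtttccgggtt
Uqcrc1: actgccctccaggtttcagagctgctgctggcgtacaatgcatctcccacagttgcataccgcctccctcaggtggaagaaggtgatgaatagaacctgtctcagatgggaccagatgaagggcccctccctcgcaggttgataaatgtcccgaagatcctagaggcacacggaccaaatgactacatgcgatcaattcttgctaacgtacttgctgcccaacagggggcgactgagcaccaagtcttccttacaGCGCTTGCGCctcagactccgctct
Cox5a: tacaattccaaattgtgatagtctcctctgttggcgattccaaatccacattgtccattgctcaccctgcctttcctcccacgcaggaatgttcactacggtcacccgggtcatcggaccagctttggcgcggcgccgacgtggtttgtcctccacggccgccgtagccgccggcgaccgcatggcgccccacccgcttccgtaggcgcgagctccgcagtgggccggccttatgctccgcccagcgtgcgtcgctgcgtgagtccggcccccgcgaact
Atp5o: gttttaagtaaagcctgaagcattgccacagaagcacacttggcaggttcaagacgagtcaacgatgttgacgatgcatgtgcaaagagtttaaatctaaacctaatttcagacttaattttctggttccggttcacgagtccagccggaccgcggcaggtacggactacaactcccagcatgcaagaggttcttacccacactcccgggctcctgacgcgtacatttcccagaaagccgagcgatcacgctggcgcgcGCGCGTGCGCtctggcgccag

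Ndufb6 (an accessory subunit of complex I) held an ETS match, Sdhd (a membrane anchor of complex II) an NRF1 and an ETS match, and Uqcrc1 (a core protein of complex III) and Atp5o (a stalk subunit of complex V) an NRF1 match each. Cox5a, a subunit of complex IV with the second largest myeloid rise of the nuclear members above 20 CPM, held neither pattern in this window. Of the 86 nuclear members, 70 had a RefSeq promoter, in 75 windows of 300 bases. The NRF1 pattern was in 18 of the 75 windows (24.0%), against 4.60% of all 32851 windows; it can match both strands at a single place. The ETS pattern was in 17 (22.7%, against 8.86%), the YY1 pattern AAGATGGCG in 7 (9.33%, against 1.40%) and the E-box CACGTG in 7 (9.33%, against 7.15%). Members with and without an NRF1 match differed little in their rise from the stem to the myeloid gate, with median log2 fold changes of 0.84 (17 genes) and 0.82 (50 genes). These matches describe letters and no binding was measured.

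The 7 libraries held 36465 barcodes and 296640609 UMIs (unique molecular identifiers, 1 per captured transcript), from 14970791 to 89747946 UMIs a library. After filtering, 24430 cells were kept, 1172 to 8862 a library, with median depths of 8046 to 11083.5 UMIs. The libraries used 2 lists of barcode sequences, although the labels name a single kit: KO replicates 1 and 2 and WT replicates 1 to 3 used list A, and KO replicate 3 and WT replicate 4 used list B. The lists are a technical split that crosses the labels: mt- members took 3.75% to 4.53% of UMIs in list A and 2.14% to 2.19% in list B, and ribosomal protein genes 14.8% to 22.3% and 31.7% to 31.8%. Libraries shared 0 to 7 barcodes in pairs, except for 88 between the pair of list B, and 0 shared barcodes had equal UMI totals. B4galt1 over all kept cells was 51.2, 55.6 and 27.4 CPM (counts per 1e+06 UMIs, TMM-scaled) in KO replicates 1 to 3 and 56.4, 69.2, 56.7 and 34.8 in WT replicates 1 to 4. The groups overlapped across the barcode lists, while within each list each KO library lay below each WT library, narrowly in list A (55.6 against 56.4). Which part of the gene was deleted is not given in the sources used here, and 3′ tags outside it check nothing. Kit (137 to 311 CPM) and Ly6a (16.6 to 48.2), which encode cKit and Sca-1, were detected in every library, while the T cell gene Cd3e (at most 0.493) was near 0.

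Cells were gated by marker genes, none of them a member. The gates held 3420 stem cells (markers such as Hlf, Mecom and Procr, no Flt3 UMI), 2220 Flt3 progenitors, 3236 lymphoid (Dntt, Il7r, Rag1, Cd79a, Ebf1), 6034 myeloid (Mpo, Elane, Prtn3, Ctsg, Ms4a3), 529 megakaryocyte (Pf4, Gp9, Itga2b and others) and 283 erythroid cells. The names stand for these gene rules and not for sorted populations. A gate that needs several UMIs takes deeper cells: median UMIs per library were 4550 to 7550 in the stem gate, 4609 to 7949 in the Flt3 gate, 9221 to 12826.5 in the lymphoid gate, 11039 to 18062 in the myeloid gate and 10931.5 to 12724.5 in the megakaryocyte gate. Cell cycle genes moved the same way, from 15.1 to 22.6 per 10000 UMIs in the stem gate to 18.2 to 23.8 in the Flt3 gate, 27.2 to 33.8 in the lymphoid, 28.6 to 36.5 in the myeloid and 27.7 to 42.6 in the megakaryocyte gate. The comparisons were therefore repeated with gates called on cells thinned to 3000 UMIs, and with cells low in cycle genes.

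Nuclear respiratory chain transcripts took a rising share of each cell's RNA from the stem gate to the committed gates, and mt- transcripts did not. In the stem gate the 86 nuclear members took 1.31%, 0.921% and 2.13% of all UMIs in KO replicates 1 to 3 and 1.24%, 0.905%, 1.13% and 2.11% in WT replicates 1 to 4. In the myeloid gate the shares were 2.39%, 1.87% and 2.56% and 1.89%, 1.65%, 1.67% and 2.63%. The myeloid share was above the stem share in 7 of 7 libraries, by 1.20 to 2.03 times with a median of 1.53. KO replicate 3 and WT replicate 4, the libraries of list B, were highest in each gate with all 7 libraries, so the comparison holds within libraries and the gates overlap across them. The ratio to the stem gate was 1.02 to 1.26 for the Flt3 gate (median 1.08) and 1.06 to 1.47 for the lymphoid gate (median 1.20), both above 1 in 7 of 7 libraries. For the megakaryocyte gate it was 1.43, 1.21 and 1.18 in KO replicate 1, KO replicate 3 and WT replicate 4. These are the libraries with at least 20 such cells, and they held 22, 281 and 204. KO replicate 3 had a higher ratio there than in its myeloid gate (1.20). The erythroid gate, filled in the list B libraries only, had 2.74% in KO replicate 3 and 3.44% in WT replicate 4, the highest shares of any gate there. These sums describe the members and were not tested.

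The mt- share went the other way in most libraries in the lymphoid, myeloid and megakaryocyte gates, but not in the Flt3 gate. It was 3.74%, 5.10% and 2.30% of UMIs in the stem gate of KO replicates 1 to 3 and 4.51%, 4.86%, 5.01% and 2.43% in WT replicates 1 to 4, against 3.83%, 4.40% and 2.10% and 3.84%, 3.75%, 4.41% and 2.12% in the myeloid gate. Only KO replicate 1 had a higher mt- share in the myeloid than in the stem gate, and the ratio ranged from 0.772 to 1.02 with a median of 0.874. The lymphoid share was below the stem share in 7 of 7 libraries (ratio 0.761 to 0.983), and the megakaryocyte share in 3 of 3. For the Flt3 gate the ratio was 0.891 to 1.09 with a median of 1.01, above 1 in 4 of 7 libraries. Kept cells were limited to 10% mt- UMIs, a limit that removed 23.8% to 47.3% of the otherwise kept barcodes of list A libraries but 0.695% to 1.92% of list B, so mt- levels of list A are capped from above.

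**Figure D1:**
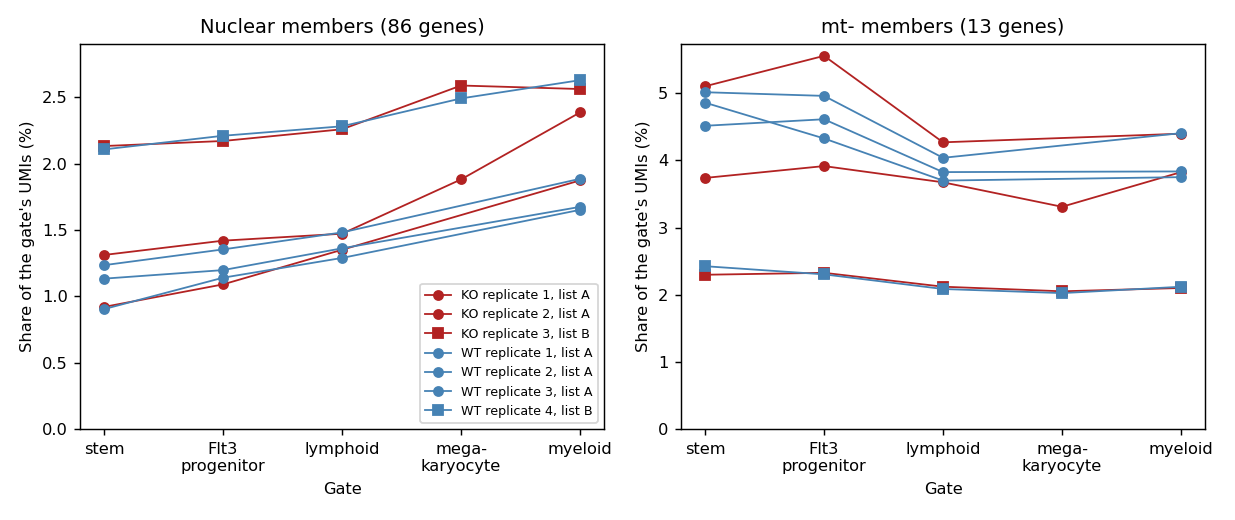
Share of each gate's UMIs (vertical axis, %) taken by the 86 nuclear members (left) and the 13 mt- members (right) in the stem, Flt3 progenitor, lymphoid, megakaryocyte and myeloid gates, 1 line per library (red KO, blue WT; circles barcode list A, squares list B). The nuclear share in the myeloid gate was above that in the stem gate in 7 of 7 libraries, and the mt- share was below it in 6 of 7.

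Per gene, the myeloid gate showed the widest rise. Of the 81 nuclear members that passed the expression filter, 78 rose and 0 fell against the stem gate (edgeR quasi-likelihood test, library as a block, Benjamini-Hochberg adjusted p under 0.05 over 13337 genes), with a median log2 fold change of 0.82. In that comparison 60.8% of all genes tested were called, 32.5% higher and 28.3% lower, and the median over all genes was 0.02, or 0.20 over genes with a mean log2 CPM of at least 5. The members left out by the filter were Ndufa4l2 with 1 UMI in all barcodes, Cox7a1 with 334, Cox7b2 with 57, and Cox8b and Cox8c with 3 each, paralogues known from muscle, testis or low-oxygen tissues. Of the 86, 75 had a higher myeloid than stem level in every library. The rise was spread over the complexes: 37 of 38 tested members of complex I rose (median 0.81), 4 of 4 of complex II (0.79), 8 of 8 of complex III (0.88), 12 of 14 of complex IV (0.85) and 17 of 17 of complex V (0.84). Tests were 2-sided, and in every gate the same stem sums serve as the base, so the comparisons are given side by side.

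Complex I takes electrons from NADH through a flavin and a chain of iron-sulfur clusters. The nuclear core subunits given here rose in the myeloid gate. Ndufv1, which carries the flavin, rose by 0.94 (SE 0.11, adjusted p = 8.19e-09, edgeR), from a stem median of 45.3 CPM (25.1 to 85.9) to a myeloid median of 88.1 (63.3 to 129). The core subunits Ndufs8, Ndufv2, Ndufs3 and Ndufs7 rose by 0.83, 0.65, 0.61 and 0.58. Ndufs1, the largest subunit of the complex, rose least of these core subunits, by 0.47 (SE 0.10, adjusted p = 0.000154, edgeR), and its levels (33.2 to 47.5 CPM in the stem gate, 50.9 to 64.5 in the myeloid gate) did not overlap. Ndufs4, an accessory subunit needed for a stable complex, was the member of complex I that was not called (0.16, adjusted p = 0.0709, edgeR).

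Ndufa4 (chr6:11900292-11907497, minus strand, mm10) rose most of the nuclear members with a mean of at least 20 CPM. Its level was 188 to 692 CPM in the stem gate (median 315), 252 to 1048 in the Flt3 gate (474), 358 to 1109 in the lymphoid gate (565) and 712 to 1454 in the myeloid gate (836). No myeloid value overlapped the stem values. The log2 fold changes were 0.52 (SE 0.11, adjusted p = 0.000664), 0.79 (SE 0.11, 1.57e-07) and 1.40 (SE 0.11, 3.29e-13) by edgeR.

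Complex II oxidizes succinate and belongs to the citric acid cycle as well. Sdhb, its iron-sulfur subunit, stood at 26.3 to 163 CPM in the stem gate (median 50.7), 66.8 to 240 in the lymphoid gate (93.9) and 70.6 to 245 in the myeloid gate (114). The ranges overlapped, and the list B libraries were high in every gate. Within libraries Sdhb rose by 0.79 in the lymphoid gate (SE 0.10, adjusted p = 7.92e-09, edgeR), the most of the nuclear members above 20 CPM there, and by 0.94 in the myeloid gate (SE 0.09, 5.73e-11). The membrane anchors Sdhd and Sdhc rose by 1.02 and 0.64 in the myeloid gate and the flavoprotein Sdha by 0.47.

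Complex III passes electrons from ubiquinol to cytochrome c. Uqcrq, a small membrane subunit, had the third largest myeloid rise of those above 20 CPM, from 78.8 to 240 CPM in the stem gate (median 99.5) to 170 to 416 in the myeloid gate (median 273). The log2 fold change was 1.17 (SE 0.13, adjusted p = 1.75e-08, edgeR). The core proteins Uqcrc1 and Uqcrc2 rose by 0.92 and 0.58 and the Rieske iron-sulfur protein Uqcrfs1 by 0.87.

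Complex IV reduces oxygen. Cox5a, a nuclear subunit that faces the matrix, rose from 138 to 294 CPM in the stem gate (median 221) through 206 to 364 in the Flt3 gate (298) and 269 to 453 in the lymphoid gate (352) to 437 to 788 in the myeloid gate (565). The stem and myeloid values did not overlap. Its log2 fold changes were 0.40 (SE 0.10, adjusted p = 0.00487), 0.77 (SE 0.10, 2.92e-08) and 1.39 (SE 0.10, 1.22e-14) in the same order (edgeR). Cox4i1 and Cox5b rose by 0.82 and 0.90 in the myeloid gate, and the ubiquitous paralogues Cox6a1, Cox6b1, Cox7a2 and Cox8a by 1.07, 0.83, 0.89 and 0.77. Cox7a2l was not called (0.19, adjusted p = 0.0676, edgeR).

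Complex V makes ATP. Atp5b, its catalytic beta subunit, stood at 154 to 653 CPM in the stem gate (median 265) and 435 to 1047 in the myeloid gate (median 640). The ranges overlapped across libraries, and within them it rose by 1.16 (SE 0.12, adjusted p = 6.84e-10, edgeR). Atp5a1 (alpha subunit) and Atp5c1 (gamma subunit) rose by 0.78 and 0.88, Atp5o by 1.13, and Atp5g1, Atp5g3 and Atp5g2, which encode the same c subunit of the rotor, by 1.07, 0.99 and 0.69.

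**Figure D2:**
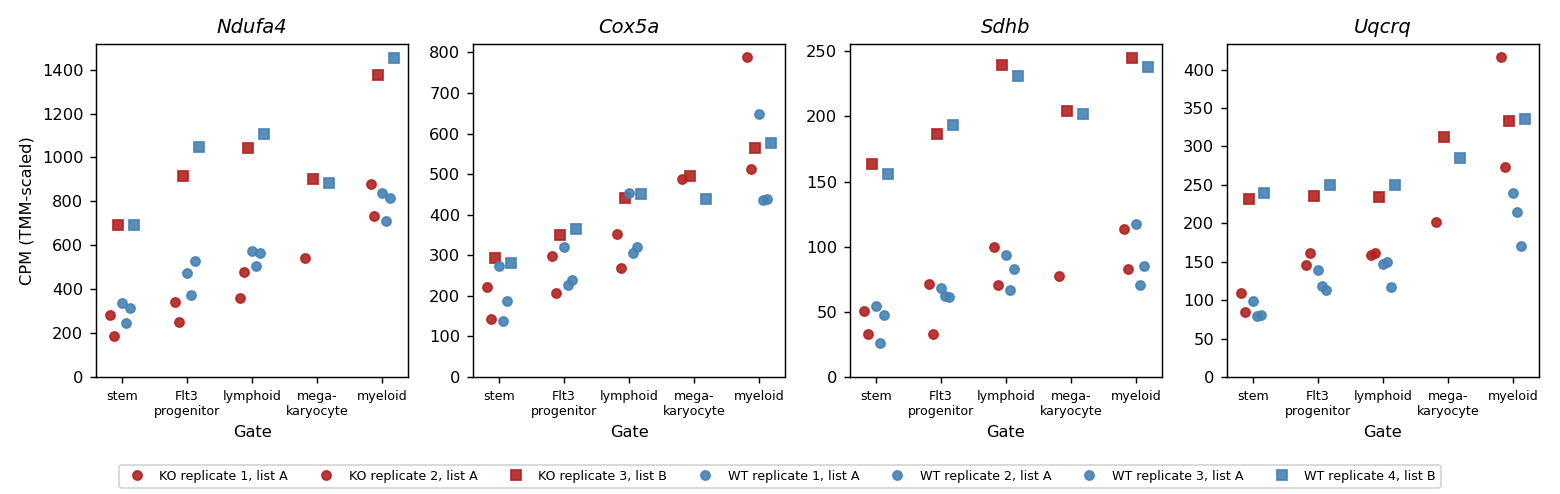
Level (TMM-scaled CPM) of Ndufa4, Cox5a, Sdhb and Uqcrq by gate, 1 point per library (red KO, blue WT; circles list A, squares list B). The myeloid values of Ndufa4 (712 to 1454) and Cox5a (437 to 788) lay above all their stem values, while the stem and myeloid values of Sdhb and Uqcrq overlapped.

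In the lymphoid gate most nuclear members rose too. Of 81 nuclear members 61 rose and 2 fell (43.5% of all genes called, 24.1% higher and 19.3% lower), with a median log2 fold change of 0.33. By complex, 25 of 38 members of complex I, 4 of 4 of II, 6 of 8 of III, 12 of 14 of IV and 14 of 17 of V rose. Besides Sdhb, Ndufa4 and Cox5a, Atp5b rose by 0.70 (SE 0.12, adjusted p = 1.08e-05, edgeR), Atp5c1 by 0.55, Cox6a1 by 0.55 and Sdhd by 0.53. Ndufs1 (0.14, adjusted p = 0.324) and Ndufs7 (0.12, adjusted p = 0.339) were not called by edgeR. Set directly against each other, the myeloid gate was above the lymphoid gate for 76 of 81 members and below it for 1 (39.3% of all genes called, 21.1% higher and 18.1% lower), with a median of 0.48. This comparison was added after the values were seen, because the summed cycle genes of these gates had overlapping ranges. The gates were not matched for cycle: single cycle genes mostly rose further from the stem gate in the myeloid than in the lymphoid gate. Rrm2 rose by 1.70 against 1.05, while Mki67 did not follow (0.86 against 0.92). In cells low in cycle genes 25 nuclear members were called (14.9% of all genes), and Atp5c1 turned to -0.0477. Atp5g1 (0.76) and Atp5mpl, a small proteolipid of complex V (0.75), were among the widest of those differences.

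The megakaryocyte gate had enough cells in KO replicate 1, KO replicate 3 and WT replicate 4 only (22, 281 and 204 cells). There 59 of 81 nuclear members rose and 0 fell (21.2% of all genes called, 11.6% higher and 9.62% lower), with a median of 0.45. By complex, 27 of 38 members of complex I, 2 of 4 of II, 4 of 8 of III, 9 of 14 of IV and 17 of 17 of V rose, and whether complexes differ was not tested. Cox5a rose most, at 487, 494 and 438 CPM against 221, 294 and 280 in the stem gate of the same libraries (0.90, SE 0.13, adjusted p = 4.58e-06, edgeR). Ndufb6 followed, at 138, 177 and 154 CPM against 59.3, 113 and 114 (0.79, SE 0.17, adjusted p = 0.00101), and Atp5b, at 510, 958 and 839 against 265, 653 and 606 (0.74, SE 0.16, adjusted p = 0.000928). Each was higher in 3 of 3 libraries. Cox4i1 (0.19, adjusted p = 0.314) and the complex III members Uqcrc1, Uqcrc2 and Uqcrfs1 (0.38, 0.23 and 0.24, adjusted p = 0.0614, 0.189 and 0.324) were not called by edgeR. The count fell to 29 without KO replicate 3 and to 16 in list A, where KO replicate 1 is the single library with this gate and is assumed to vary like the other gates.

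In the Flt3 gate, drawn by a Flt3 UMI and fewer than 3 stem genes, few members were called. Of its 2220 cells, 446 held a Dntt UMI. Of 81 nuclear members 7 rose and 1 fell, with 16.9% of all genes called (7.93% higher, 8.99% lower), so the share of members called was below that of all genes. The median log2 fold change was 0.16, against 0.02 over all genes. Besides Ndufa4 and Cox5a, Sdhb (0.38, adjusted p = 0.0078), Ndufa10 (0.32), Ndufb1-ps (0.29) and Atp5f1 (0.30) rose, together with Cox6a2. The call of Cox6a2 rests on 39 UMIs in this gate and 8 in the stem gate. Uqcrq (0.36, adjusted p = 0.0915) and Atp5b (0.31, adjusted p = 0.0772) were not called by edgeR. The count depends on the gate limits: 70 nuclear members were called with stricter gates (at least 4 stem genes and at least 2 Flt3 UMIs), 39 on thinned cells, 17 in list A, 13 without KO replicate 3 and 3 without the mt- limit. The shares of all genes called in those fits are not given here.

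**Figure D3:**
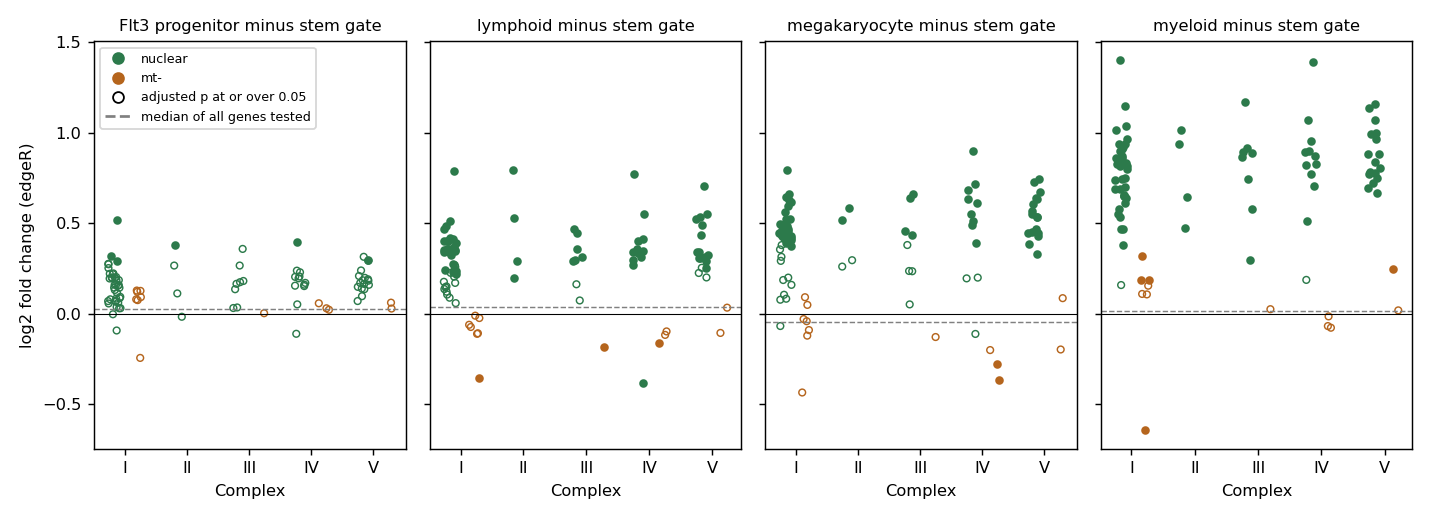
Log2 fold change (edgeR) of each member with a mean log2 CPM of at least 5 against the stem gate, by complex, in the Flt3 progenitor, lymphoid, megakaryocyte and myeloid gates (green nuclear, orange mt-; filled points have an adjusted p under 0.05; the dashed line is the median of all genes tested). Nuclear members of the 5 complexes lay above that line in the myeloid gate, where 78 of 81 rose, and most mt- members lay below it in the lymphoid and megakaryocyte gates.

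The cycle genes and the nuclear members moved together within the stem gate too. With the cells divided at 14.7 cycle UMIs per 10000, the median of all kept cells, the nuclear share was 0.684% to 1.99% in the stem cells low in cycle genes and 1.11% to 2.45% in those high in them, and the latter was higher in every library. Among cells low in cycle genes the myeloid share (1.20% to 2.16%) still exceeded the stem share in 7 of 7 libraries, by 1.07 to 1.79 times with a median of 1.27. Of 80 nuclear members tested there, 59 rose in the myeloid gate with a median of 0.35, where 34.3% of all genes were called. In the lymphoid gate 18 rose and 1 fell (median 0.12, 31.5% of all genes called) and in the Flt3 gate 5 rose (median 0.08, 17.4%). The megakaryocyte comparison called 6 in the 2 libraries it then had (median 0.26, 3.48%). With gates called on thinned cells, 64 nuclear members rose in the lymphoid, 78 in the myeloid and 70 in the megakaryocyte gate. The share of all genes called on thinned cells is not given here, so these counts stand without a background.

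A few paralogues departed from the common rise. Cox6a2 (chr7:128205435-128206387, minus strand, mm10), the form of a complex IV subunit known from heart and skeletal muscle, had most of its UMIs of these gates in the lymphoid gate. Its UMIs numbered 39 in the Flt3 and 262 in the myeloid gate, 8 in the stem gate (1, 0 and 2 in KO replicates 1 to 3 and 0, 1, 0 and 4 in WT replicates 1 to 4) and 1046 in the lymphoid gate (76, 6 and 252, and 39, 42, 96 and 535). The lymphoid levels were 41.3, 5.35 and 39.5 CPM in KO replicates 1 to 3 and 12.7, 13.2, 22.1 and 34.5 in WT replicates 1 to 4, against at most 0.571 in any stem sum, so the gates did not overlap. Neither the fold nor the p of the test against the stem gate is given, because both rest on few stem UMIs. The gene stays in the counts of called members. In the lymphoid gate 493 of 3236 cells held a Cox6a2 UMI, against 8 of 3420 in the stem gate, at median depths of 9221 to 12826.5 and 4550 to 7550 UMIs. Levels in the myeloid gate were lower than in the lymphoid gate by 3.10 on the log2 scale (SE 0.20), and higher in 0 of 7 libraries. Cells with a UMI of Siglech, a gene of plasmacytoid dendritic cells, made up 1.64% of the lymphoid gate and held 11.1% of its Cox6a2 UMIs, and 0.586% of the Flt3 gate with 48.7% of the 39 UMIs there; cells with a Dntt UMI, 98.6% of the lymphoid gate, held 94.8%.

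Cox4i2 (chr2:152754173-152765037, plus strand, mm10), known as the low-oxygen form of the fourth subunit, fell in the Flt3 and lymphoid gates. Its stem UMIs were 5, 1 and 95 in KO replicates 1 to 3 and 0, 0, 3 and 76 in WT replicates 1 to 4, nearly all in the list B libraries, where its levels were 13 and 9.75 CPM. It fell by 1.74 in the Flt3 gate (adjusted p = 0.000862, edgeR) and by 2.55 in the lymphoid gate (SE 0.38, 4.84e-07), and was not called in the myeloid gate (-0.23, 0.515) or the megakaryocyte gate (-0.85, 0.133). Its lymphoid level was below its stem level in the list B libraries and above it in 3 of 7 libraries. In the list A libraries alone it did not pass the expression filter. Cox6b2 (chr7:4751792-4753094, minus strand, mm10), the testis form of another subunit of complex IV, stood at 21.7 to 113 CPM in the stem gate (median 30.3), 14.1 to 80.3 in the lymphoid gate (29.4) and 34.5 to 145 in the myeloid gate (46.4). It rose in the myeloid gate (0.51, SE 0.11, adjusted p = 0.000117) and fell in the lymphoid gate (-0.38, SE 0.12, 0.00855), a fall that was lost in list A alone (-0.27, adjusted p = 0.179) and without the mt- limit (-0.25, 0.121, edgeR). Myeloid and lymphoid levels differed directly by 0.89 (SE 0.11, adjusted p = 3.69e-08).

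**Figure D4:**
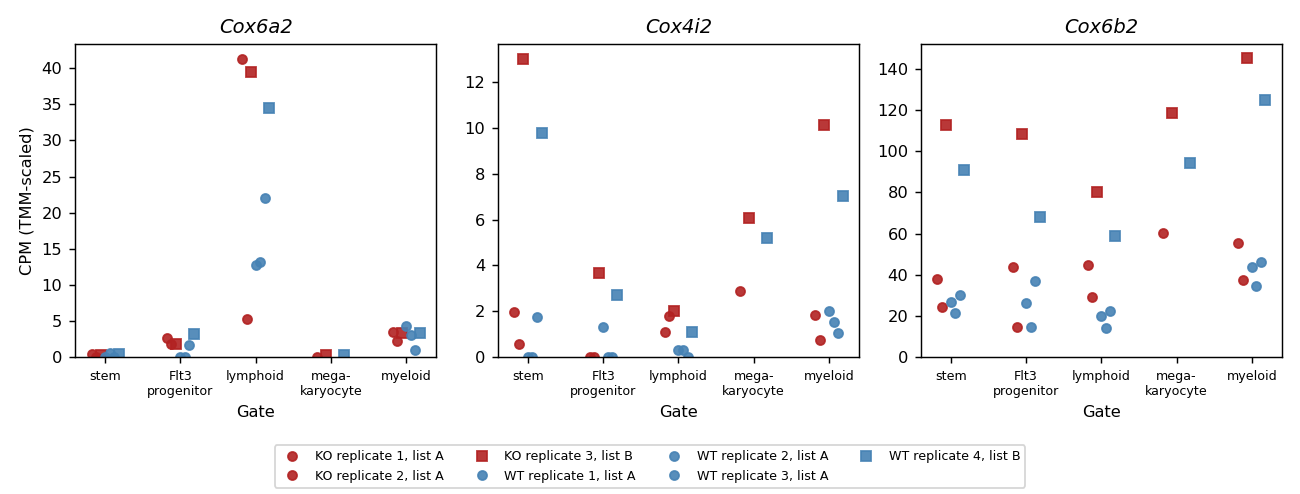
Level (TMM-scaled CPM) of the complex IV paralogues Cox6a2, Cox4i2 and Cox6b2 by gate, 1 point per library (red KO, blue WT; circles list A, squares list B). Cox6a2 was at 5.35 to 41.3 CPM in the lymphoid gate and at most 0.571 in the stem gate, and Cox4i2 was above 5 CPM in list B libraries alone.

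The mt- members, core subunits that mitochondrial DNA encodes for complexes I, III, IV and V, did not rise as a group. Of 13, none was called in the Flt3 gate by edgeR (1 at an unadjusted p under 0.05, 0 by DESeq2), 3 fell in the lymphoid gate, 4 rose and 1 fell in the myeloid gate, and 2 fell in the megakaryocyte gate. Over all genes 19.3% fell in the lymphoid gate, 60.8% were called in the myeloid gate and 9.62% fell in the megakaryocyte gate, so the lymphoid count was near the background and the myeloid count below it. The medians were 0.06, -0.11, 0.11 and -0.12. The sign in the myeloid gate depends on the scale: the mt- share of UMIs fell in 6 of 7 libraries, while after TMM scaling the median was above 0, and without the mt- limit it was -0.14. mt-Nd6, a complex I subunit and the single member encoded on the other strand of the mitochondrial genome, had the widest fall, from 12.6 to 90.9 CPM in the stem gate (median 64.6) to 10.2 to 65.2 in the lymphoid gate (55.7) and 8.55 to 56.8 in the myeloid gate (46.4). It was lower in the myeloid than in the stem gate in 7 of 7 libraries (-0.64, SE 0.10, adjusted p = 4.59e-07, edgeR) and fell in the lymphoid gate too (-0.35, SE 0.10, 0.00402).

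mt-Nd1, another complex I core subunit, rose in the myeloid gate, from 1567 to 2010 CPM (median 1939) to 2167 to 2628 (median 2270), with no overlap (0.32, SE 0.07, adjusted p = 0.000154, edgeR). mt-Nd3, mt-Nd4l and mt-Atp8 rose by 0.19, 0.18 and 0.25 there, and mt-Cytb, the complex III core, fell by 0.19 in the lymphoid gate (adjusted p = 0.0229), as did mt-Co3 (-0.16, 0.026). In the megakaryocyte gate mt-Co1, the catalytic subunit of complex IV, stood at 4989, 4133 and 4301 CPM against 5622, 5426 and 5870 in the stem gate of the same libraries (-0.37, SE 0.09, adjusted p = 0.00229), and mt-Co3 at 5925, 3980 and 3522 against 6806, 4596 and 4556 (-0.28, SE 0.08, 0.0118). Both were lower in 3 of 3 libraries. Near-identical copies elsewhere in the transcriptome (at least 95% identity over 100 of the last 300 bases) were found for 7 mt- members and 14 nuclear ones, Cox5a, Cox6a1, Atp5g1 and Atp5g2 among them, and how reads were shared between copies was not tested.

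Genes of the same pathway outside the name rule gave a mixed picture. Of 42 assembly factors, 27 rose and 1 fell in the myeloid gate, such as Uqcc2 (0.87) and Coa3 (0.83) against Ttc19 (-0.35), while 2 rose in the lymphoid, 5 in the megakaryocyte and 1 in the Flt3 gate. Over all genes 32.5% rose in the myeloid gate, 24.1% in the lymphoid, 11.6% in the megakaryocyte and 7.93% in the Flt3 gate. Of 12 carrier genes, 8 rose and 2 fell in the myeloid gate. Cycs, which encodes cytochrome c, rose by 1.50 there, by 0.67 in the lymphoid and by 1.03 in the megakaryocyte gate. Cyc1, the cytochrome of complex III, rose by 1.17 in the myeloid gate, and Coq8a, of ubiquinone synthesis, fell by 0.82. Of 20 genes of mitochondrial DNA expression and its regulators, 8 rose and 1 fell in the myeloid gate, a share near that of all genes. Slirp and Ssbp1 rose by 0.67 and 0.65, Esrra by 0.54, Myc by 0.53 and Tfam by 0.25. The coactivator Ppargc1a fell by 2.19, a fold that rests on few UMIs, as its mean log2 CPM of 1.24 was the lowest of this list. Glycolysis genes moved with them, 11 of 16 higher and 3 lower in the myeloid gate, with Pgam1 at 1.87, Gapdh at 1.12 and Pgk1 at 1.01 against Ldhb at -0.60 and Hk1 at -0.31. All 24 cycle genes were higher in the myeloid and in the lymphoid gate, and 23 in the megakaryocyte gate.

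Between the labels, nuclear members were higher in KO libraries on the whole but none passed the test. Over all kept cells, with the barcode list as a covariate, 0 of 82 nuclear members were called by edgeR, against 162 of 14608 genes (1.11%) in all. At an unadjusted p under 0.05 there were 43 of the 82, against 19.1% of all genes, and DESeq2 called 16, against 5.86%. The log2 fold change of KO against WT was above 0 for 80 of the 82, with a median of 0.47 against 0.01 over all genes. Of the members, 0 of 13 mt- ones were called by edgeR (1 unadjusted, 1 by DESeq2), with a median of 0.11.

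The smallest p was that of Atp5mpl, at 251, 168 and 368 CPM in KO replicates 1 to 3 and 106, 94.7, 104 and 311 in WT replicates 1 to 4 (0.81, SE 0.20, adjusted p = 0.0899, edgeR). Atp5k, another small membrane subunit of complex V, stood at 245, 185 and 282 against 116, 109, 99.2 and 264 (0.73, SE 0.20, 0.108), and Ndufb1-ps of complex I at 359, 266 and 440 against 172, 146, 166 and 392 (0.72, SE 0.19, 0.108). Each KO library of list A lay above each WT library of list A, and KO replicate 3 was above WT replicate 4 by less. Across the lists the groups overlapped, and 1 of the tested nuclear members had groups without overlap (5.74% of all genes tested did), Ndufs1 at 57.0, 54.2 and 52.2 CPM in KO and 50.6, 44.7, 38.9 and 51.9 in WT libraries. The mt- members with the smallest p were mt-Nd3 (0.61, adjusted p = 0.165), at 730, 894 and 142 CPM against 384, 452, 655 and 108, and mt-Atp8 (0.34, 0.445).

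The makeup of the libraries moved with the labels. Myeloid-gate cells made up 42.5% ± 10.7 of kept cells (SD, n = 3; 30.2% to 50.1%) in KO libraries and 12.6% ± 3.21 (SD, n = 4; 8.20% to 15.9%) in WT libraries, and lymphoid-gate cells 6.63% ± 2.08 against 19.0% ± 1.06. Without the myeloid-gate cells the median label difference of the nuclear members was 0.16, with 0 called by edgeR and 11 at an unadjusted p under 0.05. Within list B, KO replicate 3 against WT replicate 4 gave a median of 0.07 with 70 of 82 above 0, as a description of a pair of libraries. List A alone called 6 nuclear members with a median of 0.60, and without KO replicate 1 the median of the other libraries was 0.21. Leaving out KO replicate 3 or WT replicate 4, the list B libraries, gave 5 calls each. The shares of all genes called in these subsets are not given here, so the counts cannot be set against a background.

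Within gates no member was called by label either, which does not show that the labels did not differ. In the stem gate 0 of 79 nuclear members were called by edgeR (1 unadjusted, 0 by DESeq2; 0.00949% of all genes), with a median of 0.04; Ndufb1-ps had the smallest p (0.46, adjusted p = 1.00). In the Flt3 gate 0 of 79 were called (2 unadjusted, 0 by DESeq2; 0.176% of all genes; median 0.05, or 0.22 with 24 unadjusted under stricter gates), and in the lymphoid gate 0 of 80 (2 unadjusted, 0 by DESeq2; 0.158%; median 0.04). Cox6b2 came nearest there (0.77, SE 0.19, adjusted p = 0.24, edgeR). In the myeloid gate 0 of 82 were called (12 unadjusted, 0 by DESeq2; 0.0376%), with a median of 0.25, led by Atp5mpl (0.52, adjusted p = 0.504). That median was 0.003 with stricter gates, 0.02 in cells low in cycle genes and 0.04 without KO replicate 1.

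The mt- members had medians of -0.09, 0.02, 0.03 and 0.13 in the stem, Flt3, lymphoid and myeloid gates, with 0 called by edgeR or DESeq2 and 0, 0, 1 and 1 at an unadjusted p under 0.05. Whether the label difference itself differed between the myeloid and the stem gate was tested by an interaction term: 0 of 80 nuclear members were called (0 unadjusted, 0 by DESeq2; 0% of all genes), with a median of 0.18 that turned to -0.08 with stricter gates and in cells low in cycle genes. Without KO replicate 3 the interaction called 5 nuclear members and in list A 2, and the shares of all genes called in those fits are not given here. The smallest p values were those of Uqcrc2 (0.29), Ndufv2 (0.29) and Cox6c (0.33), each with an adjusted p of 1.00 (edgeR). The mt- interaction was above 0 for 13 of 13 members, with a median of 0.25, 0 called by edgeR or DESeq2 and 1 at an unadjusted p under 0.05, that of mt-Nd6 (0.44, SE 0.17).

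**Figure D5:**
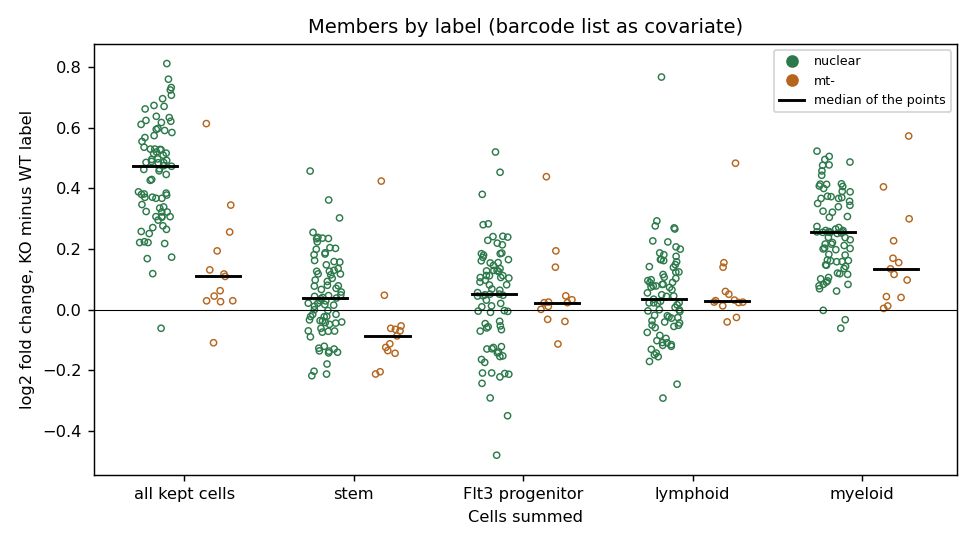
Log2 fold change of KO against WT (edgeR, barcode list as covariate) of members with a mean log2 CPM of at least 5, over all kept cells and within the stem, Flt3 progenitor, lymphoid and myeloid gates (green nuclear, orange mt-; bars are medians of the points). The nuclear points lay mostly above 0 over all kept cells, where the median of all 82 tested was 0.47, and near 0 within the stem, Flt3 and lymphoid gates; no point had an adjusted p under 0.05.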

How the data were processed

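The UMI counts per gene and barcode were deposited by the authors as 1 sparse matrix per library, unnormalized as far as their whole-number values show, from a Single Cell 3′ v2 kit per the labels. Cell Ranger 7.0.0, Seurat 4.4.0 and the build mm10 are named in the submitters' processing notes, without their roles, and a filter on cells is not given in the sources used here. Barcodes with at least 1000 UMIs, 500 genes and at most 10% mt- UMIs were kept. No doublet caller was run, so doublets remain, but cells that met the rules of more than 1 lineage gate were left out of the gates. Median depth of kept cells was 8046 to 11083.5 UMIs.

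Gates used raw UMIs of marker lists. Myeloid cells had at least 2 list genes and a rate of 10 per 10000 UMIs, lymphoid cells 2 list UMIs, megakaryocyte cells 3 list genes, erythroid cells 2, stem cells 3 stem genes and no Flt3 UMI, and Flt3 cells 1 Flt3 UMI and fewer than 3 stem genes. Counts were summed per library and gate (at least 20 cells) and tested in edgeR 4.0.16 under R 4.3.3 by the quasi-likelihood method, robust, with TMM scaling and the filterByExpr filter, adjusted by Benjamini-Hochberg over all genes at 0.05. Gate fits had the library as a block and label fits the barcode list as a covariate. The code was tested on simulated counts. Values of 3′ tags were not compared between genes.

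Named genes were the catalytic core of each complex (1 member of it is not reported here), the paralogue sets, the 3 nuclear members with the largest called rise or fall at a mean of at least 20 CPM (or the smallest p), and the 2 mt- members with the smallest p. Ndufa10, Ndufb1-ps, Atp5f1 and other names outside these rules were chosen after their values were seen. Members and lists were chosen with earlier results of these data known. Alternatives were DESeq2 1.42.0, no gene filter, other mt- limits, library sizes without mt- and ribosomal protein genes, stricter gates, thinned cells, cells low in cycle genes, the replicate number as a block and leaving out each library. List A alone, the sums without myeloid-gate cells, the myeloid against lymphoid comparison and a second denominator of the mt- share were added after seeing the data. Copies were searched with BLAST 2.17.0 in GENCODE transcripts of mm10, and promoters come from RefSeq, matched by symbol.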

Additional observations from a re-analysis of the deposited data

Results flagged for a closer look

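Of 20 sets of 4 WT libraries examined, 5 members had 1 library far from the others over all kept cells, in each case WT replicate 4, the single WT library of barcode list B. Chance flags about 1 in 20 such sets, a rate that takes no account of the barcode lists. Atp5mpl stood at 311 CPM there against 94.7 to 106 in the other 3 (gap over range 0.948, above Dixon's 95% critical value for 4 samples), Atp5k at 264 (0.896) and Ndufb1-ps at 392 (0.895), the members with the smallest p between the labels. Cox4i2 stood at 4.32 CPM (0.933) and Cox6b2 at 94.0 (0.915), against 24.7 to 30.6 in the other WT libraries. KO replicate 3, of the same barcode list, was high for the same members, with 122.7 CPM of Cox6b2. The offset of WT replicate 4 was not particular to the flagged members. Outside the sets examined, Cox6b1 stood at 552 CPM there against 142 to 162 in the other WT libraries, and Ndufa1 at 145 against 45.3 to 52.0. Of the mt- members, mt-Nd3 was lowest there, at 108 against 384 to 655. The part of the barcode list in the label comparison was not tested beyond its use as a covariate.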

How the results depend on the processing

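In the myeloid gate the number of nuclear members called stayed between 59 and 80 under the alternatives run. Apart from cells low in cycle genes and DESeq2 over all kept cells, counts under alternatives stand without the share of all genes called. The mean gain in their share, 0.702 percentage points, became 0.979 with mt- and ribosomal protein genes out of the denominator, and the mt- difference, -0.502, became -1.87 without the mt- limit. The count of nuclear calls in the Flt3 gate, 8, became 3 without the mt- limit, 70 with stricter gates, 39 on thinned cells, 5 in cells low in cycle genes, 17 in list A, and 6 to 13 when each library was left out. Its mt- calls went from 0 to 1 with stricter gates and on thinned cells. Cells low in cycle genes called 19 nuclear members in the lymphoid gate (main 63), 6 in the megakaryocyte gate (59) and 25 between the myeloid and lymphoid gates (77). Reversed in those cells were Atp5g1 in the lymphoid gate (-0.00571), Atp5c1 between these gates (-0.0477), and the interactions of Uqcrc2 (-0.0714) and Ndufv2 (-0.0783). The megakaryocyte gate called 16 nuclear members in list A and 29 to 60 with each library left out.

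Counts of mt- calls were unstable. The lymphoid 3 became 7 by DESeq2, 1 with no gene filter, 0 at a 5% limit, 12 without a limit, 1 on thinned cells, 6 in cells low in cycle genes, 6 in list A, and 1 to 5 with each library left out. The myeloid 5 became 9 at a 5% limit, 2 without a limit, 8 with stricter gates, 1 in cells low in cycle genes, 3 in list A, and 2 to 5 with each library left out. The megakaryocyte 2 became 4 by DESeq2 and 0 in cells low in cycle genes, and the 8 between the myeloid and lymphoid gates 5 on thinned cells, 5 in cells low in cycle genes and 4 to 7 with each library left out. The causes were not tested.

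By label over all kept cells, DESeq2 called 16 nuclear members and 1 mt- member, the fit with no gene filter 5, list A 6, and leaving out each library 0 to 5 (5 without KO replicate 3 and 5 without WT replicate 4, the list B libraries). No gene filter called 1 in the lymphoid gate. The interaction called 2 in list A and 0 to 5 with each library left out (5 without KO replicate 3). With the replicate number as a block, 0 members were called in each label comparison, with a nuclear median of 0.79 and an mt- median of -0.20 over all kept cells. This fit leaves out WT replicate 4 and does not have the barcode list as a covariate. It sets KO replicate 3 of list B against WT replicate 3 of list A, so label and list cannot be told apart in that pair. Same-numbered libraries deviated together in 2 pairs (correlations 0.532 and 0.723) but not in the third (-0.356, across the barcode lists), and KO replicate 3 went best with WT replicate 4 (0.889), so the numbers were not taken to pair the libraries. Of the values of single genes under alternatives, 2145 kept direction and side of the threshold, 131 lost their call, 18 gained one and 4 reversed.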

Other observations

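The erythroid gate held at least 20 cells in the list B libraries only, so it entered no comparison. Cox6b2, the testis form of a complex IV subunit, was at 266 CPM in KO replicate 3 and 349.6 in WT replicate 4 there, against 113 and 91.0 in their stem gates. Atp5b stood at 1010.5 and 1585 CPM, against 653 and 606, and Cox5a at 512 and 839, against 294 and 280. The summed share of the nuclear members was above that of the stem gate in 2 of 2 libraries, by 1.28 and 1.64 times, while Cox6a2 had 0 CPM in both libraries. Cycle genes took 35.8 and 37.3 per 10000 UMIs of the erythroid gate, above both stem gates, and their part in the values was not tested.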
